A study of Spodoptera litura with 9 samples.

Results

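The data compared here are long non-coding RNAs (lncRNAs, transcripts that are not translated into protein) in the testes of the tobacco cutworm moth Spodoptera litura, in the prepupa against the larva. The prepupal group, L6D6, held testes of day 6 sixth instar animals, which the submitters describe as prepupae whose testes were fusing. The larval group, L6D4, held testes of day 4 sixth instar animals, described as before fusion. Days are counted within the stage. The labels give both groups the same artificial diet, temperature, humidity and light cycle, and name no treatment or genotype for either. The comparison takes in 6 of the series' 9 libraries, 3 of L6D6 and 3 of L6D4, and the table's 2476 lncRNA transcripts. The other 3 libraries, from pupae on day 0 (P0D, after fusion), entered the filter on low counts, the scaling and the estimate of spread, but not the comparison itself. The labels give 9 males and 3 repeats per stage without saying whether a repeat pools animals or whether 9 is the total, and the p-values speak only of the spread from library to library, which may be technical. Fusion, age and the change from larva to prepupa go together in these samples and cannot be told apart. Whole testes were sampled, so fewer cells of a type and less RNA per cell cannot be told apart either. The table holds lncRNAs alone, and the tissue label was not checked against marker genes.

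In moths the larval testes are a pair of separate organs in which germ cells develop in cysts enclosed by somatic cells, and in this species the pair joins into 1 organ around pupation. The same period brings the rise of the moulting hormone ecdysone, and germ cells advance through meiosis and sperm formation. Many insect lncRNAs are transcribed in the testis, and they are known to act near their own locus, at distant loci or in the cytoplasm, but most have no known role. The transcripts below are therefore described by their level, their change and, where a reference gives it, the coding genes next to them.

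Levels are given as CPM, counts scaled to a common total of lncRNA counts, after TMM (trimmed mean of M-values, a scaling that lines up the bulk of the transcripts). A level is therefore relative to the other lncRNAs, since mRNA counts were not used. Library totals lay between 3204178 and 4017339 lncRNA counts at L6D6 and between 2665564 and 3625876 at L6D4. Of 2476 transcripts, 1913 had enough counts to be tested. Of the 563 that were not tested, 187 had no count in any of the 6 libraries and 376 had few or uneven counts. Transcripts are called changed where edgeR's quasi-likelihood test gave an adjusted p (Benjamini-Hochberg) under 0.05.

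The prepupal testis differed from the larval testis in 422 of the 1913 tested lncRNAs (22.1%), of which 248 (13%) were higher and 174 (9.1%) were lower at L6D6. The median called change on the log2 scale was 1.86 for rises and -1.35 for falls, and the order of the 2 differed by abundance, as given below. A change of at least 2-fold was called for 318 transcripts (16.6%), 194 (10.1%) higher and 124 (6.48%) lower. Over all tested transcripts the median log2 fold change was -0.02. Without L6D6 replicate 1 the count of calls was 279 and without L6D6 replicate 2 it was 272, and the falls alone came to 100 and 102. Scaled by library totals alone, the median of all transcripts moved to 0.314 and the split to 329 higher and 78 lower, so directions are relative to the bulk of lncRNAs.

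**Figure D1:**
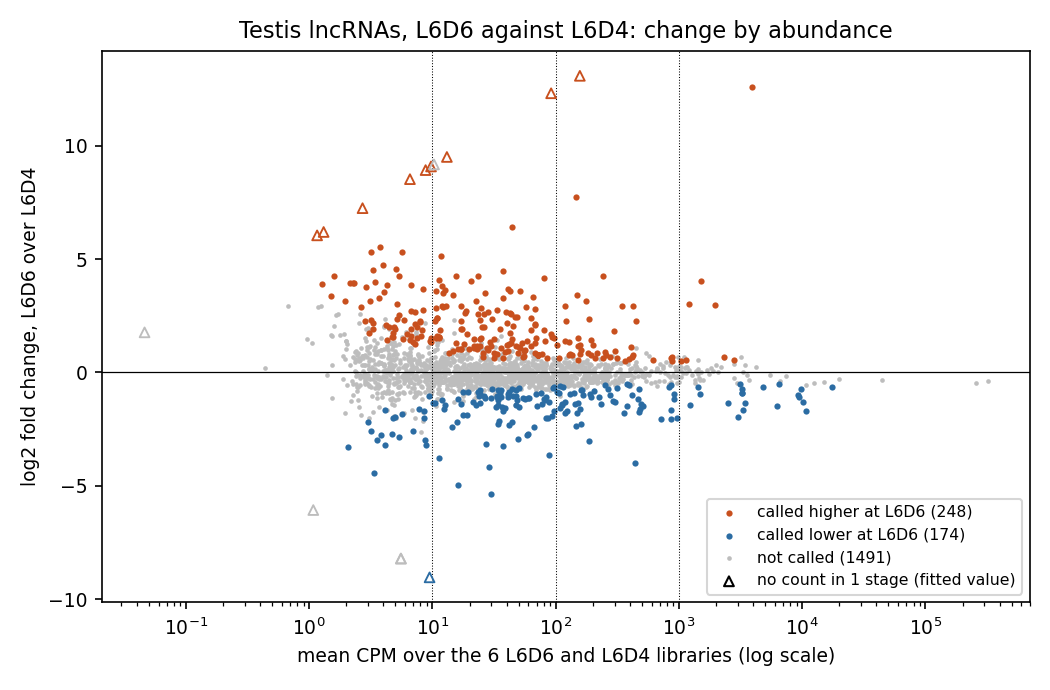
Each point is 1 of the 1913 tested lncRNAs, with mean CPM over the 6 libraries on a log axis and the log2 fold change of L6D6 over L6D4; orange and blue mark the 248 called higher and the 174 called lower, triangles mark transcripts with no count in 1 stage (fitted values, which are no bounds), and dotted lines divide the abundance classes. The called rises reach farther from 0 than the called falls, and the smallest called change narrows from the left to the right.

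Beyond the few largest changes lay a long run of moderate ones. Among the rises, the change ranked 10th was 39.6-fold (MSTRG.1178.1), the 25th 16.3-fold (MSTRG.2786.1), the 50th 9.83-fold (MSTRG.20404.1), the 100th 4.79-fold (MSTRG.18259.1) and the 150th 2.81-fold (MSTRG.14924.1). Among the falls, a shorter list, it was 9.54-fold at rank 10 (MSTRG.9432.1), 5.3-fold at rank 25 (MSTRG.12559.1), 3.41-fold at rank 50 (MSTRG.17361.1), 2.29-fold at rank 100 (MSTRG.11184.1) and 1.7-fold at rank 150 (MSTRG.745.1). These transcripts are named for their rank alone, after their values were seen, and equal ranks are not compared because the lists differ in length. MSTRG.1178.1 was close to absent at L6D4 (mean 0.234 CPM, against 11 CPM at L6D6), so its size is uncertain. Its log2 fold change was 5.31 with all libraries, 4.64 without L6D4 replicate 1 and 8.3 without L6D4 replicate 2. Without L6D4 replicate 3 the log2 fold change of MSTRG.9432.1 was -1.36, against -3.25 with it, so its size rests largely on that library. The call for MSTRG.9432.1 ended without L6D6 replicate 1 (0.0517) or 3 (0.0501) and with limma-voom (0.076). That for MSTRG.11184.1 ended without L6D6 replicate 1 or 2 or L6D4 replicate 3 (0.069 to 0.116), and that for MSTRG.745.1 without any one L6D6 library, L6D4 replicate 1 or 3 or P0D replicate 2 (0.0671 to 0.177, edgeR) and without the filter (0.0609). Both also ended under library totals alone (0.173 for MSTRG.11184.1 and 0.468 for MSTRG.745.1). Changes of 4-fold or more made up 55, 30 and 27 rises in the steps 4 to 8, 8 to 16 and 16-fold or more, against 26, 8 and 6 falls. Between 2-fold and 4-fold, the 2 directions stood at 82 rises and 84 falls. A transcript without a count in 1 stage entered these sizes at its lower bound, for which the empty stage was given 3 counts in all as a floor.

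A large estimate did not always give a call. Of 270 transcripts with an estimate between 2-fold and 4-fold, 104 were not called, and 3 of 36 at 16-fold or more were not. These 3 are named here for their size, after their values were seen. MSTRG.2756.2 had 111, 138 and 0 counts at L6D6 and none in any L6D4 library (adjusted p = 0.0789, edgeR). MSTRG.2605.1 and MSTRG.2605.2 had identical values, with no count at L6D6 and 12, 4 and 56 counts at L6D4 (adjusted p = 0.108, edgeR). MSTRG.2756.2 was thus missing from 1 prepupal library, and most of the larval counts of the other pair came from replicate 3. MSTRG.2756.2 was called without L6D6 replicate 3 (0.0438) or P0D replicate 3 (0.0266), and the other pair without P0D replicate 1 (0.0192, edgeR) and with DESeq2 (1.03e-07). Conversely, 6 of the 422 calls had CPM that overlapped between the stages. Non-overlap alone was found for 42.3% of tested transcripts, 21.7% higher and 20.6% lower. In 173 of the 422, all libraries of one stage lay at least 2-fold from all of the other (123 rises and 50 falls).

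The share of transcripts called grew with abundance, and the balance of directions turned over. Classes were set by the mean CPM over the 6 libraries. Over all tested transcripts, called or not, the median log2 fold change also moved: 0.16, -0.02, -0.11 and -0.14 from the lowest class to the highest. Under 10 CPM, 87 of 493 tested transcripts were called (17.6%), 66 higher and 21 lower. From 10 to 100 CPM it was 208 of 957 (21.7%), 128 higher and 80 lower, and from 100 to 1000 CPM 99 of 385 (25.7%), 46 higher and 53 lower. At 1000 CPM and over, 28 of 78 were called (35.9%), 8 higher and 20 lower. Scaled by library totals alone, this turn was lost: rises outnumbered falls in every class, with 77 and 9, 155 and 32, 77 and 25, and 20 and 12 from the lowest class to the highest. Single libraries bore on these counts. Without L6D6 replicate 1 the calls came to 53 in the class under 10 CPM, 63 in the class from 100 to 1000 CPM and 16 in the class of 1000 CPM and over. Without L6D6 replicate 2 they came to 51 under 10 CPM, 137 from 10 to 100 CPM and 16 at 1000 CPM and over, where leaving out L6D4 replicate 3 or L6D6 replicate 3 gave 16 and 18.

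The median log2 size of the called changes also differed by class. Under 10 CPM it was 2.60 for rises and -2.60 for falls, and from 10 to 100 CPM 1.59 for rises and -1.30 for falls. From 100 to 1000 CPM the falls were larger, with 0.91 for rises and -1.27 for falls, and at 1000 CPM and over it was 1.83 for rises and -0.98 for falls. That last class held 8 rises, 4 of at least 2-fold and 4 under 2-fold, and their median lies between these groups.

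Replicate error fell with abundance, and the smallest change that was called was largest in the class under 10 CPM. The median coefficient of variation between replicates was 33.8% at L6D6 and 44.5% at L6D4 in the class under 10 CPM, and 5.91% at L6D6 and 12.5% at L6D4 in the class of 1000 CPM and over. In every class it was lower at L6D6. The smallest called change was 1.02 on the log2 scale under 10 CPM, 0.62 from 10 to 100 CPM, and 0.49 in both classes above. No change smaller than that was called in the class under 10 CPM, and shares called in different classes rest on different replicate errors. How much of that error is counting error was not tested.

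**Figure D2:**
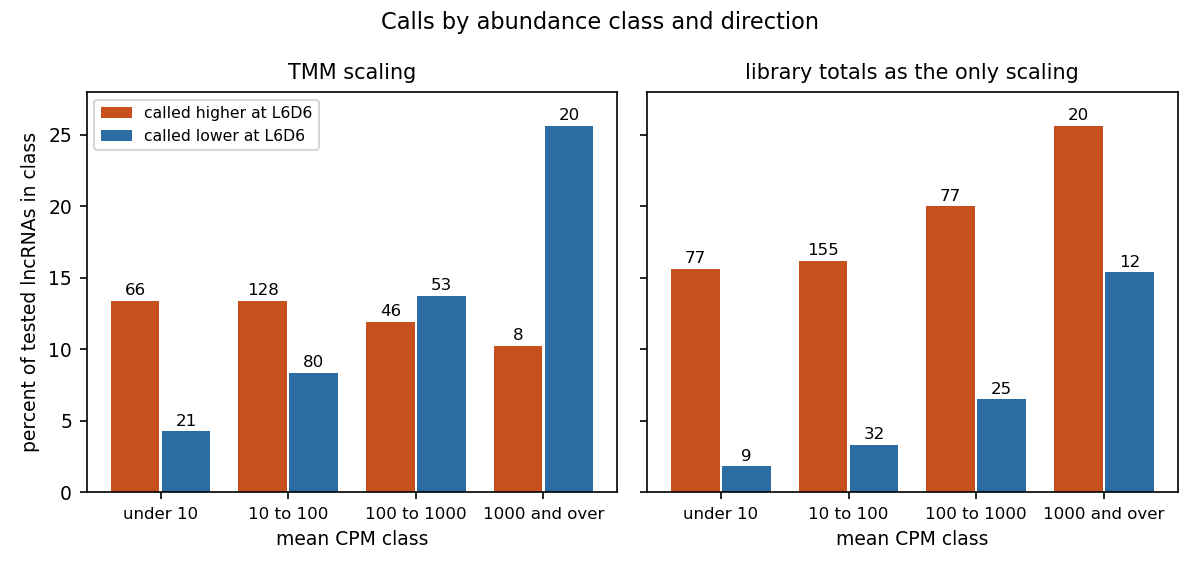
Bars give the percent of tested lncRNAs called higher (orange) and lower (blue) at L6D6 in 4 classes of mean CPM, with counts above the bars, for TMM scaling on the left and library totals alone on the right. In the class of 1000 CPM and over, 20 falls stand beside 8 rises on the left, and 12 falls beside 20 rises on the right.

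Taken by summed level, relative to the other lncRNAs, the balance lay with the falls. Transcripts called lower held 8%, 9.66% and 10.6% of the counts in the L6D6 libraries, against 15.7%, 15.5% and 15.2% in the L6D4 libraries. Transcripts called higher held 5.15%, 5.38% and 5.72% at L6D6, against 1.67%, 1.52% and 1.22% at L6D4. These shares describe transcripts chosen by the same contrast and carry no test. The transcripts were called under TMM, and scaling by library totals alone gave 329 called higher and 78 called lower. Summed over the 248 rises, the mean level was 50200 CPM at L6D6 and 17200 CPM at L6D4. A single transcript, MSTRG.15510.1, made 23.5% of that difference and the 5 largest contributors 49.7%. Summed over the 174 falls, it was 87100 CPM at L6D6 and 183000 CPM at L6D4, and the 5 largest contributors made 42.7% of the difference. Among these 5, XR_002696821.1 was not called with library totals alone. The 2 most abundant transcripts of the table, which were not called, took 53.4% ± 1.93 of the counts at L6D6 and 55.6% ± 1.87 at L6D4 (SD, n = 3 each).

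Among the abundant lncRNAs, 4 rose steeply. MSTRG.15510.1 had 7980, 7220 and 8160 CPM at L6D6, against 0.591, 1.4 and 2.02 CPM at L6D4. It was at 2, 4 and 4 counts in the larval libraries, so it was close to absent there (log2 fold change 12.59, SE 0.34). XR_002696919.1 had 2330, 2750 and 3440 CPM at L6D6, against 181, 188 and 154 CPM at L6D4 (log2 fold change 4.02, SE 0.20). The lowest prepupal library stood far above the highest larval one in both. MSTRG.19852.1 had 2400, 1930 and 2090 CPM at L6D6, against 256, 194 and 335 CPM at L6D4 (3.03, SE 0.21). MSTRG.17032.1 had 3450, 3660 and 3340 CPM at L6D6, against 406, 316 and 596 CPM at L6D4 (2.99, SE 0.27). In edgeR's test the adjusted p was 4.1e-10 for MSTRG.15510.1 and at most 1.23e-05 for the other 3, and each stayed called under every alternative run. The other 4 rises in the class were all under 2-fold. Of these, XR_002696683.1 of the gene LOC111349542, which overlaps the coding gene LOC111349541, rose to 2850 ± 59.3 CPM at L6D6, against 1780 ± 216 CPM at L6D4 (SD, n = 3 each; log2 fold change 0.68, SE 0.17, edgeR adjusted p = 0.0148). MSTRG.2121.1 rose by 0.54 (SE 0.17) on the log2 scale, with 3320 ± 126 CPM at L6D6 and 2280 ± 286 CPM at L6D4 (SD, n = 3 each; edgeR adjusted p = 0.0417). The call for XR_002696683.1 ended without L6D6 replicate 2 (adjusted p = 0.053, edgeR) and without L6D4 replicate 3 (0.0604). That for MSTRG.2121.1 ended without any one L6D6 or L6D4 library or P0D replicate 2 (0.0679 to 0.129, edgeR).

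The 20 falls among abundant lncRNAs were graded rather than complete, from -0.51 to -1.95 on the log2 scale. MSTRG.16782.1 had 4120, 5650 and 5380 CPM at L6D6, against 14800, 16000 and 19000 CPM at L6D4 (log2 fold change -1.71, SE 0.20). MSTRG.11235.2 had 5620, 6080 and 5580 CPM at L6D6, against 12000, 14600 and 16500 CPM at L6D4 (-1.32, SE 0.17). MSTRG.14392.1 had 1130, 1280 and 1330 CPM at L6D6, against 4020, 3380 and 7130 CPM at L6D4 (-1.95, SE 0.27). In these 3 the prepupal libraries lay close together and well below the larval ones. MSTRG.9724.1 had 2140, 3760 and 4020 CPM at L6D6, against 8480, 7900 and 11000 CPM at L6D4 (-1.47, SE 0.25). MSTRG.5684.2 had 932, 1480 and 2400 CPM at L6D6, against 4330, 4430 and 6240 CPM at L6D4 (-1.64, SE 0.29). The prepupal libraries differed more among themselves in this pair, with replicate 1 lowest, but did not reach the larval range. In edgeR's test these 5 had adjusted p from 8.76e-05 to 0.0018. The most abundant lncRNA called in either direction, XR_002696821.1, had 12500, 14600 and 13400 CPM at L6D6, against 22300, 18300 and 22900 CPM at L6D4 (-0.65, SE 0.17, edgeR adjusted p = 0.018). Scaling by library totals alone ended its call (0.172), as did leaving out L6D4 replicate 1, L6D4 replicate 3 or any one L6D6 library (0.0558 to 0.081, edgeR).

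**Figure D3:**
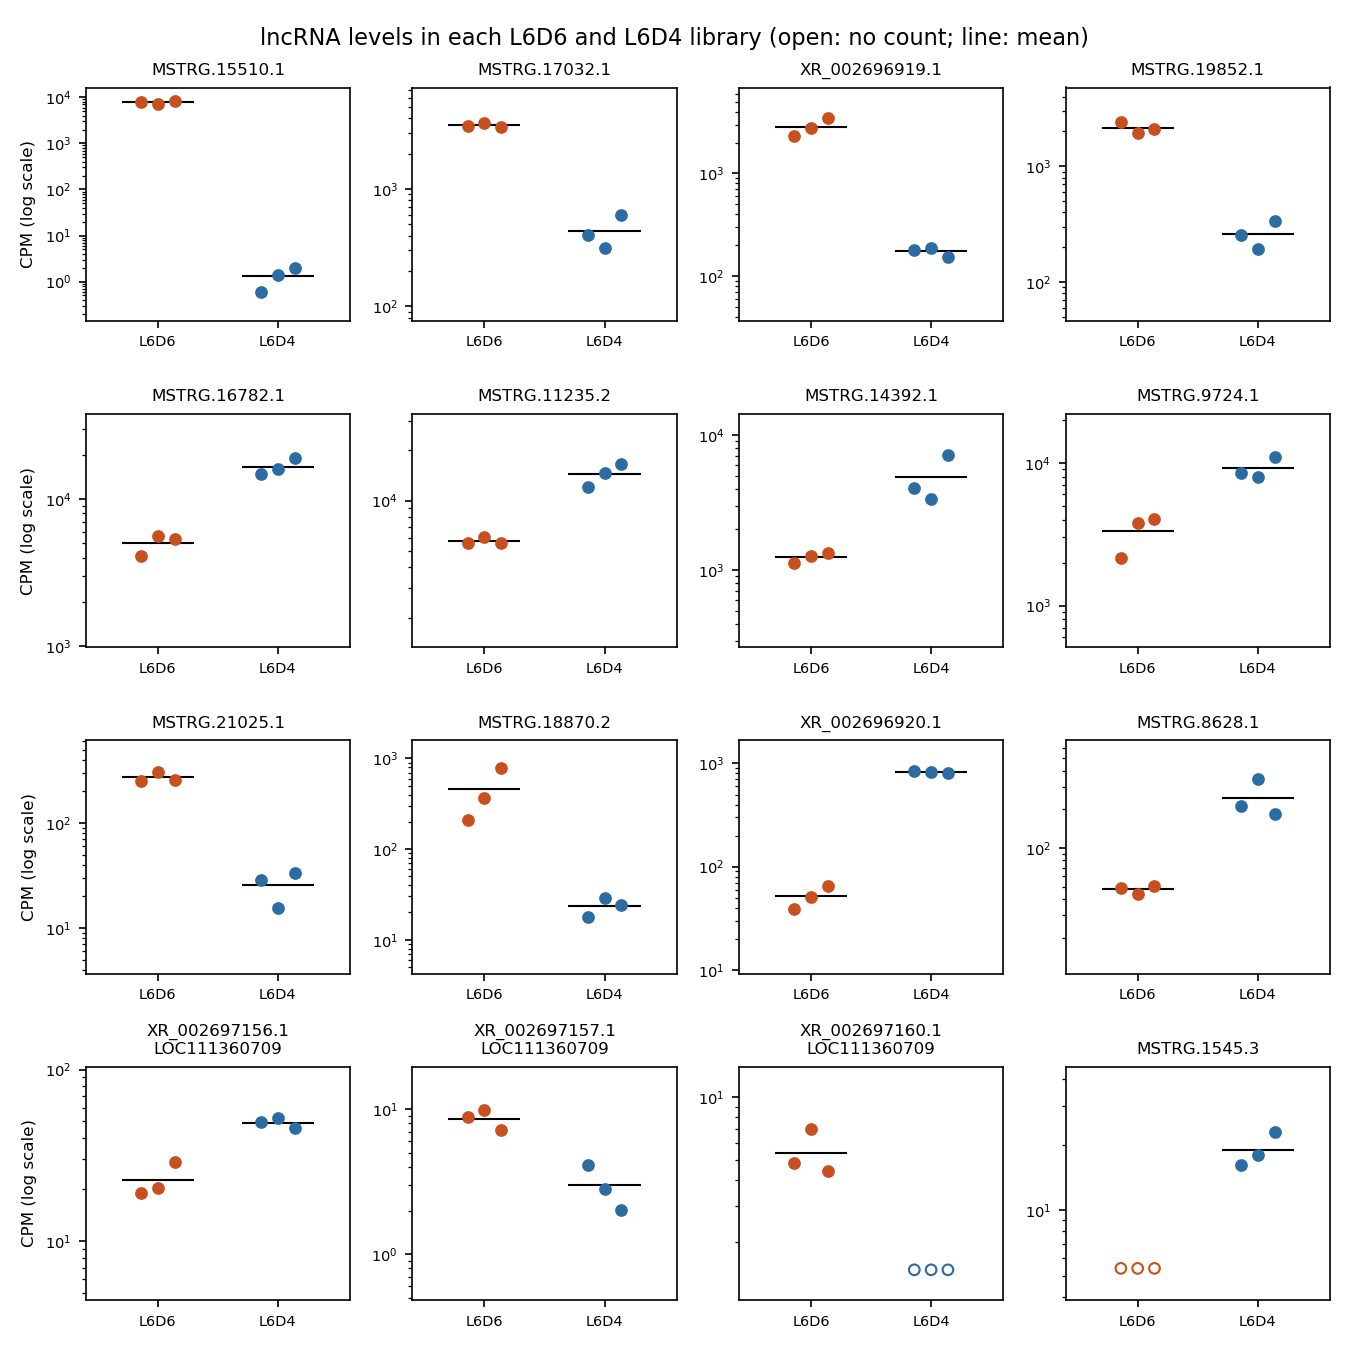
CPM in each L6D6 (orange, left) and L6D4 (blue, right) library on log axes for 16 lncRNAs, with lines at the means and open points for libraries with no count. The stages do not overlap in any panel; MSTRG.18870.2 spreads from 212 to 792 CPM at L6D6, and 2 transcripts of LOC111360709 run opposite to XR_002697156.1 of the same gene.

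At middle abundance, from 100 to 1000 CPM, some rises started from no count or few counts in the larva and others were graded. MSTRG.13874.1 had 196, 356 and 390 CPM at L6D6 and no count at L6D4, at least 859-fold higher. MSTRG.17050.1 had 335, 263 and 282 CPM at L6D6, against 1.77, 0.701 and 1.52 CPM at L6D4 (log2 fold change 7.74, SE 0.40). MSTRG.21025.1 had 253, 307 and 258 CPM at L6D6, against 28.4, 15.4 and 33.4 CPM at L6D4 (3.42, SE 0.27). MSTRG.18870.2 was uneven in the prepupa, with 212, 362 and 792 CPM at L6D6, against 17.7, 29.1 and 24.3 CPM at L6D4 (4.27, SE 0.44), but its lowest prepupal library was still above every larval one. The largest fall of the class was in XR_002696920.1, with 38.6, 50.7 and 65.4 CPM at L6D6, against 836, 830 and 815 CPM at L6D4 (-4.00, SE 0.21). The larval libraries agreed closely for this transcript. MSTRG.8628.1 fell to 47.8 ± 3.25 CPM at L6D6, against 247 ± 84.5 CPM at L6D4 (SD, n = 3 each; -2.37, SE 0.29). MSTRG.16177.2 fell to 54.6 ± 18.7 CPM at L6D6, against 266 ± 91.5 CPM at L6D4 (SD, n = 3 each; -2.28, SE 0.29). XR_002696705.1, of LOC111350059, fell to 40.1 ± 1.15 CPM at L6D6, against 329 ± 31.1 CPM at L6D4 (SD, n = 3 each; -3.04, SE 0.18). Adjusted p of these 8 ran from 1.43e-07 to 0.000157 (edgeR).

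From 10 to 100 CPM, the most numerous class, the 4 largest rises started from near 0. MSTRG.15511.1 had 744, 696 and 681 counts at L6D6 and none at L6D4, at least 503-fold higher. MSTRG.20834.1 had 118, 89.3 and 52.9 CPM at L6D6, against 1.18, 0 and 2.02 CPM at L6D4 (log2 fold change 6.41, SE 0.58). The annotated XR_002696751.1 had 92, 47 and 117 counts at L6D6, against 1, 3 and 1 at L6D4 (5.13, SE 0.59). XR_002697176.1 of LOC111360913 had 81, 130 and 95 counts at L6D6 and none at L6D4, at least 71.6-fold higher. Taken as a whole locus, LOC111360913 was not called (log2 fold change 0.42, SE 0.16, edgeR adjusted p = 0.0798). The rise is therefore that of a transcript, and a shift of reads within the locus was not tested. The 4 largest falls went close to 0 in the prepupa without reaching it in all libraries. MSTRG.265.2 had 0, 1 and 10 counts at L6D6, against 95, 75 and 77 at L6D4 (-4.95, SE 0.76), so L6D6 replicate 3 kept most of what was left. XR_002696777.1 of LOC111351439 had 5, 3 and 8 counts at L6D6, against 237, 149 and 107 at L6D4 (-5.37, SE 0.37). XR_002696602.1 of LOC111347957, which overlaps the coding gene LOC111347950, had 11, 7 and 16 counts at L6D6, against 199, 158 and 94 at L6D4 (-4.17, SE 0.33). XR_002696778.1 of LOC111351442 had 3, 12 and 3 counts at L6D6, against 64, 58 and 49 at L6D4 (-3.78, SE 0.51). In edgeR's test these 8 had adjusted p from 1.11e-07 to 0.000625.

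Under 10 CPM the direction was mostly up, and several transcripts had counts in 1 stage alone. MSTRG.11278.2 had 68, 82 and 76 counts at L6D6 and none at L6D4, at least 53.4-fold higher. MSTRG.16536.1 had 79, 31 and 88 counts at L6D6 and none at L6D4, at least 48.2-fold higher, and MSTRG.4652.3 had 31, 94 and 33 counts and none, at least 36-fold higher. The reverse was seen in MSTRG.1545.3, which had no count at L6D6 and 55, 51 and 45 counts at L6D4, at least 73.5-fold lower. MSTRG.18228.1 had 0, 0 and 3 counts at L6D6, against 20, 21 and 12 at L6D4, a ratio of L6D4 over L6D6 of 25 (95% exact counting interval 8.1 to 125), but its call ended without L6D6 replicate 1 or 2 (adjusted p of 0.0652 to 0.0678, edgeR). MSTRG.13483.1 had 3 counts in each L6D6 library, against 12, 29 and 17 at L6D4 (log2 fold change -3.19, SE 0.67, edgeR adjusted p = 0.00496). MSTRG.20440.1 had 1, 1 and 2 counts at L6D6, against 14, 6 and 10 at L6D4 (-3.30, SE 1.02, edgeR adjusted p = 0.0372). Scaling by library totals alone ended its call (0.0926), as did testing without the filter (0.0508). So did leaving out L6D4 replicate 2 or 3, any one L6D6 library or P0D replicate 2 (0.0528 to 0.138, edgeR). MSTRG.20440.1 was not tested without L6D4 replicate 1, with the 6 libraries alone or with the 2 dominant transcripts left out. Over the whole table, 7 transcripts had no count at L6D4 and at least 10 counts in every L6D6 library, and 1 had the reverse. After TMM, 10 counts stood for a higher CPM in each L6D4 library than in any L6D6 one. The 7 and the 1 are therefore not compared. All 8 were called, against 22.1% of all tested, but they were chosen for counts in 1 stage alone, which favours a call.

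Annotated transcripts were called about as often as those of the transcript assembly. Of 248 tested annotated transcripts 62 were called (25%), 33 higher and 29 lower, and of 1665 assembled ones 360 (21.6%), 215 higher and 145 lower, against 22.1% of all tested. The 33 rises include 7 transcripts with identical values in every library, among them XR_002696848.1 of LOC111352996, so they are not separate measurements. That signal stood at 90.2 ± 9.55 CPM at L6D6 and 52.9 ± 6.68 CPM at L6D4 (SD, n = 3 each; log2 fold change 0.77, SE 0.20, edgeR adjusted p = 0.0179), and leaving out replicate 1 or 2 of either stage ended its call (0.0503 to 0.078). Of the annotated transcripts, 27 that were called matched no gene of the reference used. Among these, picked after their values were seen, XR_002697290.1 rose to 120 ± 9.51 CPM at L6D6, against 17.1 ± 3.79 CPM at L6D4 (SD, n = 3 each; 2.82, SE 0.21). XR_002696820.1 rose to 467 ± 113 CPM at L6D6, against 131 ± 9.81 CPM at L6D4 (SD, n = 3 each; 1.83, SE 0.21). XR_002696847.1 fell to 272 ± 44.2 CPM at L6D6, against 708 ± 17.1 CPM at L6D4 (SD, n = 3 each; -1.38, SE 0.16). In edgeR's test these 3 had adjusted p from 3.02e-06 to 9.63e-05. XR_002696806.1 was also called (adjusted p = 0.0184, edgeR), although its counts of 28, 523 and 163 at L6D6 and 26, 22 and 22 at L6D4 leave L6D6 replicate 1 below every larval CPM. Its call ended without L6D6 replicate 2 (log2 fold change 1.59, adjusted p = 0.104, against 2.74 with it), without L6D4 replicate 1 or 2 (0.0664 and 0.0633, edgeR) and with limma-voom (0.172).

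Coding genes with a name lay next to some of the changed lncRNAs. Roles below are background, known mainly from Drosophila, and the coding genes themselves were not measured here. LOC111347786 lies beside Bsg, which encodes basigin, a glycoprotein of the cell membrane, and its transcript XR_002696594.1 had 87.1, 106 and 103 CPM at L6D6, against 50.5, 58.5 and 57.2 CPM at L6D4 (log2 fold change 0.83, SE 0.20, edgeR adjusted p = 0.0109); the call ended without L6D6 replicate 2 (0.0502). LOC111350494 lies beside Ada2b, a subunit of a histone acetyltransferase complex. Its transcript XR_002696726.1 had 17, 50 and 24 counts at L6D6, against 0, 0 and 2 at L6D4, 32.2-fold higher (95% exact counting interval 8.65 to 270; edgeR adjusted p = 0.00185). LOC111348367 lies beside Cad86C, a cadherin gene of cell adhesion. Its transcript XR_002696623.1 had 7, 21 and 22 counts at L6D6, against 1, 1 and 0 at L6D4, 17.7-fold higher (95% exact counting interval 4.64 to 150; edgeR adjusted p = 0.0025). The gene kin17, of a nucleic acid-binding protein, has a called lncRNA gene on either side: LOC111351442, given above, fell, and LOC111351378 rose to 23.1 ± 1.61 CPM at L6D6, against 11.3 ± 4.95 CPM at L6D4 (SD, n = 3 each; log2 fold change 1.04, SE 0.33, edgeR adjusted p = 0.0393). That rise, of transcript XR_002696766.1, was no longer called without L6D4 replicate 1 or 2, any one L6D6 library or P0D replicate 2 (0.0598 to 0.116, edgeR). The lncRNAs beside Ada2b, Cad86C and kin17 were picked for their neighbours after their values were seen.

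Falls were also called in 3 further abundant annotated lncRNAs. XR_002697180.1 of LOC111360926, beside the coat protein gene Copg1, had 240, 247 and 242 CPM at L6D6, against 311, 417 and 443 CPM at L6D4 (log2 fold change -0.68, SE 0.21, edgeR adjusted p = 0.0394). XR_002696883.1 of LOC111353519, beside the mannosyltransferase gene Alg3, had 357, 412 and 304 CPM at L6D6, against 541, 565 and 652 CPM at L6D4 (-0.71, SE 0.19, edgeR adjusted p = 0.019). The stages did not overlap in either. LOC111353519 also overlaps 2 coding genes and LOC111360926 overlaps 1, so their reads are uncertain. Scaling by library totals alone ended both calls (0.155 for XR_002697180.1 and 0.122 for XR_002696883.1). Leaving out L6D4 replicate 2 or 3, any one L6D6 library or P0D replicate 2 ended the call for XR_002697180.1 (0.0628 to 0.128), which testing without the filter also did (0.052). Leaving out L6D4 replicate 3 or L6D6 replicate 1 or 3 ended that for XR_002696883.1 (0.0722 to 0.0896, edgeR). XR_002696912.1 of LOC111354290, which overlaps the coding gene LOC111354289, fell to 121 ± 10.6 CPM at L6D6, against 204 ± 15.2 CPM at L6D4 (SD, n = 3 each; -0.76, SE 0.18, edgeR adjusted p = 0.00939), and scaling by library totals alone ended its call (0.347).

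Smaller rises were called in 2 further annotated transcripts. XR_002697171.1 of LOC111360892 had 170, 152 and 168 CPM at L6D6, against 82.7, 82 and 122 CPM at L6D4 (log2 fold change 0.77, SE 0.22, edgeR adjusted p = 0.024). XR_002696988.1 of LOC111356162 had 196, 245 and 316 CPM at L6D6, against 146, 198 and 143 CPM at L6D4 (0.64, SE 0.21, edgeR adjusted p = 0.0469), and its stages overlapped. Leaving out L6D4 replicate 1 or 2 or any one L6D6 library ended the call for XR_002697171.1 (0.0574 to 0.0906). For XR_002696988.1, leaving out P0D replicate 2, L6D6 replicate 2 or 3, or L6D4 replicate 1 or 3 did so (0.0643 to 0.2), and so did limma-voom (0.0546).

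Lists of coding genes of hormone signalling, adhesion and matrix, the cytoskeleton, and the germ line were set against the neighbours of the placed lncRNAs. They met 7 transcripts, of which 4 were tested and all 4 were called, 3 higher and 1 lower, against 22.1% of all tested lncRNAs. Of the 4, 3 belong to 1 gene, so the lists are too small for any statement on a theme. The hormone list met 1 lncRNA, XR_002696799.1 of LOC111351795 beside the ecdysteroid-inactivating enzyme gene Cyp18a1, which had no count at L6D6 and 0, 3 and 0 counts at L6D4 and was not tested. The germ line list met XR_002697335.1 of LOC111363950, beside Boule, whose product is an RNA-binding protein of male meiosis in Drosophila. It had no count in any library. Without L6D6 replicate 2 the calls for XR_002696594.1 and XR_002697157.1 ended, which left 2 of the 4.

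The cytoskeleton list met 1 gene, LOC111360709 beside the flotillin gene Flo1, whose product forms membrane scaffolds. Its transcripts went opposite ways, and among loci whose transcripts could be grouped it was the single locus with called transcripts in both directions. Annotated transcripts that matched no gene of the reference each counted as a locus of their own. XR_002697156.1 had 19, 20.3 and 29.1 CPM at L6D6, against 49.6, 51.9 and 45.6 CPM at L6D4 (log2 fold change -1.10, SE 0.24, edgeR adjusted p = 0.00664). XR_002697157.1 had 8.84, 9.82 and 7.21 CPM at L6D6, against 4.14, 2.8 and 2.02 CPM at L6D4 (1.48, SE 0.41, edgeR adjusted p = 0.0226). XR_002697160.1 had 18, 30 and 16 counts at L6D6 and none at L6D4, at least 14.8-fold higher (edgeR adjusted p = 0.00782). The stages did not overlap in any of the 3. A 4th transcript, XR_002697158.1, had 0, 4 and 1 counts at L6D6 and 3, 0 and 0 at L6D4 and was not tested. Scaling by library totals alone ended the call for XR_002697156.1 (0.174). Leaving out L6D6 replicate 1 or 2 or L6D4 replicate 2 or 3 ended that for XR_002697157.1 (0.066 to 0.0846, edgeR). Summed over its transcripts, LOC111360709 was not called (log2 fold change -0.49, SE 0.22, edgeR adjusted p = 0.134). The division of reads between the transcripts of a gene was not given in the sources used here.

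Summed over the transcripts of each locus, 432 of 1752 tested loci changed (24.7%), 250 higher and 182 lower at L6D6, and 277 loci did without L6D6 replicate 2. Of 139 loci with 2 or more tested transcripts, 45 had a called transcript, and in 11 of those the locus sum was not called. In 5 others the sum was called and no transcript was. At 17 loci 2 or more transcripts were called, and they went the same way at 16. Transcripts of a locus may share reads, so these are not separate measurements. At MSTRG.19817, picked after its values were seen, MSTRG.19817.2 rose to 49 ± 13.6 CPM at L6D6, against 4.37 ± 1.42 CPM at L6D4, and MSTRG.19817.3 to 21.4 ± 8.47 CPM at L6D6, against 2.71 ± 2.81 CPM at L6D4 (SD, n = 3 each; locus log2 fold change 3.30, SE 0.38, edgeR adjusted p = 4e-05). At MSTRG.5990, picked likewise, MSTRG.5990.1 fell to 338 ± 117 CPM at L6D6, against 1400 ± 413 CPM at L6D4, and MSTRG.5990.2 to 665 ± 283 CPM at L6D6, against 1780 ± 433 CPM at L6D4 (SD, n = 3 each; locus -1.67, SE 0.26, edgeR adjusted p = 0.000454). LOC111360913 behaved unevenly. Its transcript XR_002697178.1 had 225, 211 and 191 CPM at L6D6, against 14.2, 34 and 35.4 CPM at L6D4 (log2 fold change 2.93, SE 0.29, edgeR adjusted p = 3.05e-05), while the sum over its transcripts had 0.42 (SE 0.16, adjusted p = 0.0798).

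At the threshold the calls were close. The weakest called rise was MSTRG.4991.1, with 31.9, 15.2 and 19.7 CPM at L6D6, against 9.45, 11.9 and 5.57 CPM at L6D4 (edgeR adjusted p = 0.0493). The nearest rise that missed was MSTRG.7751.1, with 10.7, 11.9 and 7.76 CPM at L6D6, against 4.43, 5.96 and 2.02 CPM at L6D4 (0.0506). The weakest called fall was MSTRG.7430.1, with 33, 27.3 and 40.5 CPM at L6D6, against 56.1, 55 and 54.7 CPM at L6D4 (0.0497). The nearest that missed was MSTRG.16676.1, with 3.22, 0.935 and 1.94 CPM at L6D6, against 7.09, 3.15 and 13.2 CPM at L6D4 (0.0501, edgeR). Leaving out any one L6D4 library, L6D6 replicate 1 or 3 or P0D replicate 2 ended the call for MSTRG.4991.1 (0.0554 to 0.203). Any one L6D4 or L6D6 library or P0D replicate 2 did so for MSTRG.7430.1 (0.0501 to 0.185, edgeR). Scaling by library totals alone ended both (0.0714 for MSTRG.4991.1 and 0.522 for MSTRG.7430.1), as did testing without the filter (0.0508 for MSTRG.4991.1 and 0.0612 for MSTRG.7430.1). The call for MSTRG.4991.1 ended with limma-voom too (0.0883), and that for MSTRG.7430.1 when the 2 dominant transcripts were left out (0.0518). Across the 9 fits that each left out 1 library, 234 of the 422 calls (55.5%) held in every one, 148 rises and 86 falls. Under all 19 alternatives together 198 held, 133 rises and 65 falls.

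**Figure D4:**
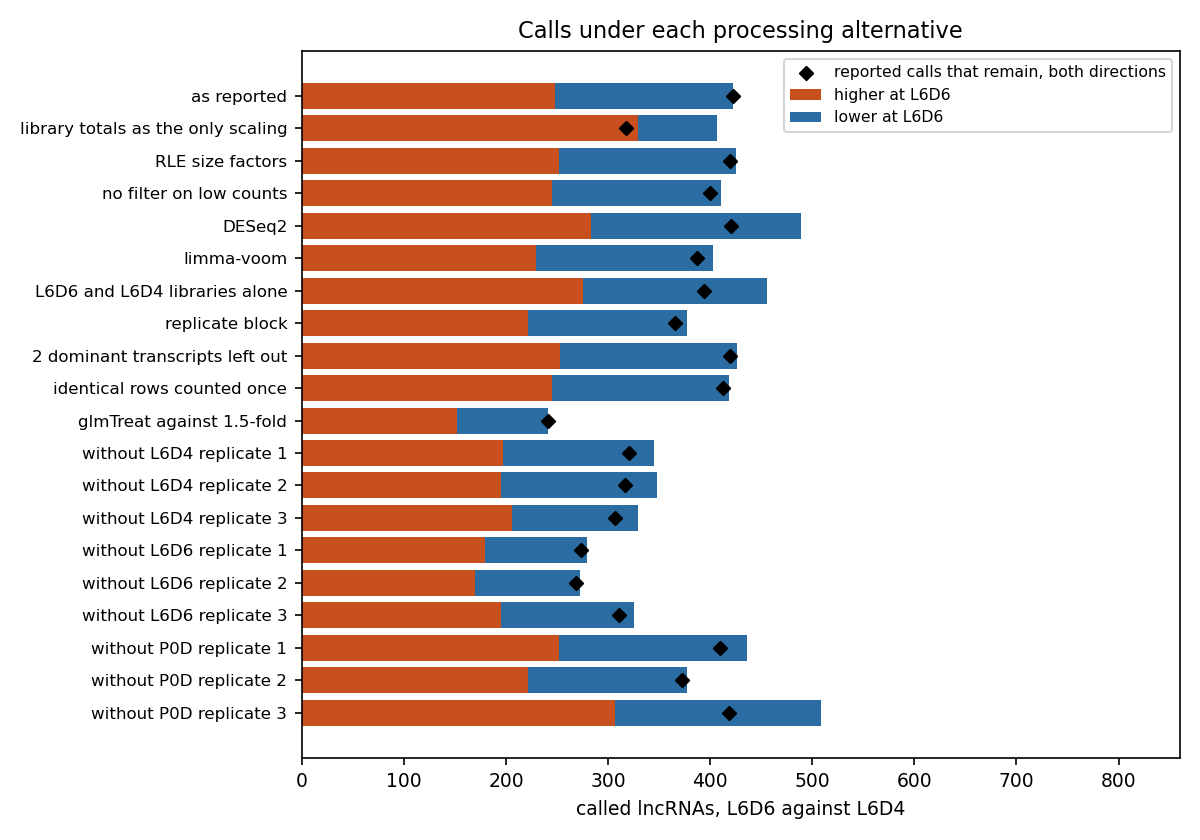
Bars give the number of lncRNAs called higher (orange) and lower (blue) at L6D6 as reported and under each alternative, and diamonds the number of the 422 reported calls that remain. Leaving out L6D6 replicate 1 or 2 leaves 279 and 272 calls, and leaving out P0D replicate 3 gives 509, of which 418 are reported ones.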

How the data were processed

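RNA from testes was sequenced after removal of ribosomal RNA with dUTP strand marking on a NovaSeq instrument, per the labels' protocols (the labels' molecule field names polyA RNA instead). The deposited values are estimated counts (expected counts) per lncRNA transcript, not scaled to depth. The submitters' processing notes name DESeq2 1.6.3, StringTie 1.3.4, HISAT2 2.1.0, Bowtie2 2.2.8 and fastp 0.18.0 without their roles. Annotation, genome build, counting tool, lncRNA filters and use of the strand were not given in the sources used here, so levels of lncRNAs that overlap or are antisense to another gene are uncertain.

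Values were rounded to whole counts. Their 9 columns were matched to samples by name. The members and lists were chosen with earlier results of these data known. Under R 4.3.3, glmQLFit and glmQLFTest of edgeR 4.0.16 (its quasi-likelihood test) were run with TMM and filterByExpr on all 9 libraries (6 residual degrees of freedom), adjusted by Benjamini-Hochberg over 1913 transcripts. SE is the log2 fold change divided by the root of F. Floors and counting intervals cover counting error only. Named are, in each abundance class, the 4 largest rises and falls by fitted log2 fold change whose CPM did not overlap (fitted values put transcripts without a count in 1 stage first), the 3 most abundant called in each direction, the 5 with most counts among those without a count in 1 stage, up to 10 called transcripts with a gene symbol, loci with opposite calls, neighbours of listed genes and the transcripts nearest to the threshold. Of 557 annotated IDs, 275 matched a RefSeq gene of ASM270686v4 by accession without version, and 227 were placed, a table used for names and neighbours only. Replicates differed by more than sampling noise (15.45 to 28.96 as chi-square over its degrees of freedom), so none was treated as a duplicate. The test was checked on simulated data. Alternatives were other scalings, no filter, DESeq2 1.42.0, limma-voom (limma 3.58.1), the 6 libraries alone, a replicate block, glmTreat against 1.5-fold, and leaving out the 2 dominant transcripts, identical rows or each library.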

Additional observations from a re-analysis of the deposited data

How the results depend on the processing

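The count of 422 called lncRNAs lay between 377 and 489 under library totals as the only scaling, RLE size factors, no filter, DESeq2, limma-voom, the 6 libraries alone, identical rows counted once and the 2 dominant transcripts left out, and under the replicate block. Tested against a fold of 1.5 with edgeR's glmTreat it was 241, with 152 higher and 89 lower, 56, 124, 49 and 12 from the lowest to the highest abundance class, 227 loci and 1 transcript beside a listed gene. With library totals alone 78 were lower. Leaving out 1 library gave between 272 and 509 calls, 170 to 307 higher and 100 to 202 lower. It gave 51 to 101 calls under 10 CPM, 137 to 241 from 10 to 100 CPM, 63 to 132 from 100 to 1000 CPM and 16 to 35 at 1000 CPM and over, 277 to 495 loci and 2 to 4 beside listed genes. The replicate numbers did not pair the libraries (correlations of same-numbered deviations 0.043, 0.006 and -0.075), and the replicate block gave 377 calls, 222 higher and 155 lower. Under the block the calls for XR_002696821.1 (adjusted p = 0.0544), XR_002696988.1 (0.056), XR_002697180.1 (0.0694), MSTRG.4991.1 (0.0914), MSTRG.7430.1 (0.0527) and XR_002696766.1 (0.0647) ended, and MSTRG.2756.2 was called (0.000227, edgeR). None of the transcripts chosen by the naming rule, and none of those named for their rank, size or neighbour whose alternatives were run, changed direction. Precision was lowest under 10 CPM, where the median coefficient of variation was 33.8% at L6D6 and 44.5% at L6D4.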

Other observations

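Some lncRNA transcripts were present in some libraries of a stage and without a count in others. Taking transcripts with no count in 1 library and at least 100 counts in another of the same stage, 11 were found over L6D6 and L6D4. None was called, against 22.1% of all tested, but they were chosen for their spread within a stage, which makes a call unlikely. All but MSTRG.19424.7 were tested. At L6D6 the library without a count was replicate 3 for 4 transcripts, replicate 2 for 3 and replicate 1 for 0. At L6D4 it was replicate 2 for 4, replicate 3 for 3 and replicate 1 for 0, with MSTRG.16978.6 at 0 in both. MSTRG.8613.1 had 229, 345 and 0 counts at L6D6, against 229, 115 and 228 at L6D4. MSTRG.2756.2 had 111, 138 and 0 counts at L6D6, none at L6D4, and 340, 365 and 0 at P0D. The annotated XR_002697177.1 had 3, 469 and 507 counts at L6D6, against 401, 442 and 0 at L6D4, and 312, 404 and 6 at P0D. MSTRG.16978.4 had 153, 0 and 124 counts at L6D6, against 0, 41 and 0 at L6D4, while MSTRG.16978.6 of the same locus had 207, 108 and 0 at L6D6, against 209, 0 and 0 at L6D4. These are values of transcripts, not of loci, and the division of reads between transcripts of a locus was not given. The labels do not say whether libraries came from different animals, and the cause was not tested.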
